A study of Mus musculus with 12 samples.

Results

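Cardiac macrophages are described here through 10 marker genes, measured in the myocardium of 12 mice. The genes were chosen by name, as those given by 1 gene symbol of the array annotation, in 3 roles. Of the 19505 genes measured, 6 were taken as markers of resident or alternatively activated macrophages (Retnla, Lyve1, Mrc1, Cd163, Timd4 and Folr2), 2 as markers of monocytes recruited from blood (Ccr2 and Ly6c2), and 2 as general macrophage markers (Csf1r and Adgre1). All 10 were measured, each by 1 probe set, so no choice between probe sets was needed.

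The mice formed 3 groups of 4, with 1 array per mouse as the labels describe them. DM_AngIV mice were made diabetic by 5 days of streptozotocin, which destroys pancreatic beta cells, and later received the peptide angiotensin IV at 2.88 mg/kg/day between week 8 and week 24. DM mice had received streptozotocin in the same way without the peptide, and diabetic mice were kept only where fasting glucose was at least 16.7 mM 2 weeks after the injections. NC mice, the negative controls, had received injections of vehicle for 5 days. Tissue was taken at an age of 6 months in all groups, and the labels give neither strain nor sex. The diabetes is the chemical loss of beta cells rather than an inherited defect, and no group without diabetes received angiotensin IV, so the peptide was tested on a diabetic background only.

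Heart muscle holds macrophages of different origin. Resident macrophages were seeded before birth, renew themselves in the tissue, clear debris and carry scavenger receptors such as the mannose receptor Mrc1, the haemoglobin receptor Cd163 and the hyaluronan receptor Lyve1. After injury, monocytes that carry the chemokine receptor Ccr2 and the surface protein Ly6C enter from blood and can become macrophages. Signalling by interleukins 4 and 13 through the transcription factor STAT6 drives a state called alternative activation in mouse macrophages, with the secreted protein RELM-alpha, encoded by Retnla, as a widely used marker.

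Retnla is the gene on which the results turn. It lies on chromosome 16 at 48842609 to 48844461 (GRCm38.p6), near its paralog Retnlg, a gene of neutrophils. The 250 bases before each gene's start, taken from RefSeq for GRCm38.p6, are shown because both hold the STAT6-type motif TTCNNNNGAA, marked in capitals.
Retnla, chr16:48842359-48842608, plus strand: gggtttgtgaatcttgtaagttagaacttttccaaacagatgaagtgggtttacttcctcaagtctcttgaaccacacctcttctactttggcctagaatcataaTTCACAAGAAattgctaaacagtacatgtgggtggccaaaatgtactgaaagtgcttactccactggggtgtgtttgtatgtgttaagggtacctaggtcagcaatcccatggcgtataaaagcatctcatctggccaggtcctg
Retnlg, chr16:48872358-48872607, plus strand: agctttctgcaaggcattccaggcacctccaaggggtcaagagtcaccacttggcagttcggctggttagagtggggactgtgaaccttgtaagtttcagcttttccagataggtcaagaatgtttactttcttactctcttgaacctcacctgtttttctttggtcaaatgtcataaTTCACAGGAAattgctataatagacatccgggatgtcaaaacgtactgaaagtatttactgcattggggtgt
The match was TTCACAAGAA, 145 to 136 bases before the start of Retnla, and TTCACAGGAA, 72 to 63 bases before that of Retnlg. The motif reads the same on both strands, and 5.85% of the 32851 promoter windows of this length hold it. Over 175 aligned bases, with the rest in gaps, the sequences shared 138, or 78.9%. Of the 7 marker genes with a promoter window, Retnla was the only member with a match to this motif in the window used. The Ccr2 window lies inside the annotated gene, and those of Cd163 and Timd4 run into their genes, so not all windows hold only sequence before the gene. The letters GAGGAA, recognised by the macrophage factor PU.1, stood in 23.3% of windows and in 3 of these 7 (Retnla, Mrc1 and Ly6c2), without overlapping the STAT6-type match in Retnla. TTGCNNNAA, of the C/EBP type, stood in 8.29% of windows and in 0 of the 7. Both were searched on both strands, and a match describes the letters only.

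Ly6c2 and its paralog Ly6c1 lie near each other on chromosome 15. Ly6c2 is high in inflammatory monocytes, whereas Ly6c1 is strongly expressed in endothelium, which bears on how a signal for Ly6c2 in whole heart can be read. Their promoters are shown to give a sense of how alike the genes are, with the longest run shared by both, of 20 bases, in capitals. The Ly6c2 window is the most upstream one available, and it overlaps the annotated gene at 75108161 to 75112066, with the shared run inside that gene.
Ly6c2, chr15:75111972-75112221, minus strand: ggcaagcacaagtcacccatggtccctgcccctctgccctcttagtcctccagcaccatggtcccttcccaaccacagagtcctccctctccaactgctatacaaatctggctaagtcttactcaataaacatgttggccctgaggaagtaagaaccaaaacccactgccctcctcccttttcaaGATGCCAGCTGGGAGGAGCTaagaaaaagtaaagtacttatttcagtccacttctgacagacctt
Ly6c1, chr15:75048838-75049087, minus strand: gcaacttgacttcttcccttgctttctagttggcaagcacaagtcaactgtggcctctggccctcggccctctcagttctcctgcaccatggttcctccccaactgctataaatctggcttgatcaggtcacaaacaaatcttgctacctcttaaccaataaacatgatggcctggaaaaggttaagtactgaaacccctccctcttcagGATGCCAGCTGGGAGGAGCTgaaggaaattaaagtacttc
Over 216 aligned bases these shared 164, or 75.9%, against 55.6% of 225 aligned bases between Ly6c2 and the unrelated Retnla. Probe sequences were not used here, so how far each probe set reads the other paralog was not tested.

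All values are expression levels on the log2 scale, made by robust multi-array average (RMA) by the authors. A gene counts as above background on an array where it exceeds 4.96, the 95th percentile of 246 reporter control probe sets. Array medians lay between 4.12 and 4.19, and the correlation of array pairs across genes between 0.977 and 0.990. Cardiomyocyte transcripts were at the top of the scale in every group, with Myh6, the main ventricular myosin of mice, at 11.89 ± 0.07 in DM_AngIV, 11.82 ± 0.10 in DM and 11.84 ± 0.07 in NC (SD, n = 4 each). Atrial signal differed between arrays, as Myl7, the atrial myosin light chain, was above background on 5 arrays, which were DM replicates 1, 2 and 4 and NC replicates 1 and 3. In these bulk samples fewer cells of a type and less RNA per cell cannot be told apart.

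Of the 10 markers, 5 were above background on all 12 arrays (Lyve1, Mrc1, Folr2, Ly6c2 and Csf1r), 3 on some (Retnla on 5, Cd163 on 8 and Adgre1 on 7) and 2 on none (Timd4 and Ccr2). Retnla fell in DM_AngIV against NC, and none of the other 9 markers was called in any comparison (limma, adjusted p below 0.05). Of all genes 1.02% were called in DM_AngIV against NC, 0.287% as lower, 0.0154% in DM against NC and 0.0% in DM_AngIV against DM. Cd163, Lyve1, Mrc1, Ly6c2, Csf1r and Adgre1 had higher means in both diabetic groups than in NC without a call. The means of Ccr2 were higher too, but below background throughout.

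**Figure D1:**
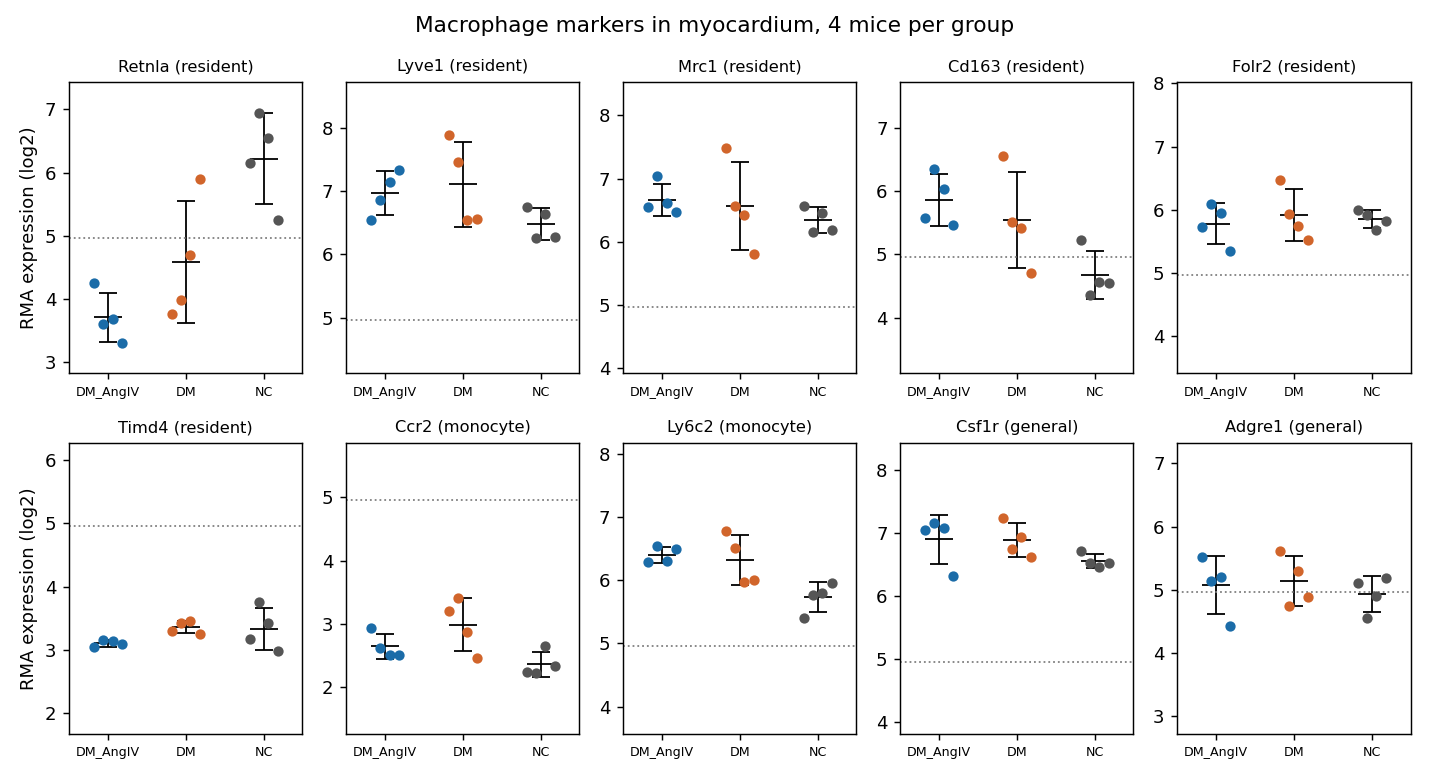
Expression of the 10 markers (y axis, RMA log2 units, each panel spanning the same number of units) in DM_AngIV, DM and NC myocardium. Points are single mice, the horizontal tick and bars are the mean ± SD (n = 4), and the dotted line is the background limit of 4.96. Retnla lies between 3.31 and 4.25 in DM_AngIV, below all NC mice, while Cd163 is higher in all DM_AngIV mice than in any NC mouse.

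Retnla had values of 4.25, 3.61, 3.68 and 3.31 in DM_AngIV replicates 1 to 4. In DM it had 3.76, 3.98, 4.70 and 5.91, and in NC it had 6.16, 6.94, 6.55 and 5.25. All DM_AngIV mice and 3 of the 4 DM mice were below every NC mouse, and DM replicate 4 alone among the diabetic mice reached the NC range. The groups DM_AngIV and DM overlapped.

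In DM_AngIV against NC, Retnla fell by 2.51 ± 0.41 on the log2 scale (here and for all differences, ± is the SE of the fit), with means of 3.71 ± 0.39 in DM_AngIV and 6.22 ± 0.73 in NC (SD, n = 4 each, limma adjusted p = 0.0102). As no DM_AngIV array was above background, Retnla was at least 2.40-fold lower. With any 1 of the 8 DM_AngIV and NC arrays left out it was still called (limma adjusted p between 0.00857 and 0.0396). It was not called once the 5 atrial arrays were dropped, at −2.38 (limma adjusted p = 0.0542), and over all 20 alternatives the adjusted p lay between 0.00439 and 0.114.

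In DM against NC, Retnla had a difference of −1.63 ± 0.41, with means of 4.59 ± 0.97 in DM and 6.22 ± 0.73 in NC, and was not called (SD, n = 4 each, limma adjusted p = 0.215). Only 1 of the DM arrays was above background, so the size of this difference is partly unmeasured, as is that between DM_AngIV and DM. Without DM replicate 4 the difference was −2.07 (limma adjusted p = 0.0271, within a range of 0.0271 to 0.520 with single arrays left out). In DM_AngIV against DM Retnla had −0.88 ± 0.41 (limma adjusted p = 0.666), and between −1.15 and −0.44 with single arrays left out. The comparisons share their DM or NC arrays and are not independent of each other.

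The other members of the resistin family gave no measurable signal. Retnlg, Retn and Retnlb were not above background on any array. Retnlg had means of 2.87 ± 0.16 in DM_AngIV, 3.49 ± 0.91 in DM and 2.66 ± 0.22 in NC, with the highest values in DM replicates 1 and 2 (3.84 and 4.61). Those 2 arrays were also the highest for the neutrophil genes S100a8 (3.91 and 4.09) and S100a9 (4.69 and 4.89), which lay below the background limit throughout. Across 10 neutrophil markers, none above background on any array, the direction in DM against NC was mixed, with 6 positive and 4 negative values.

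Retnla is also made in adipose tissue. Of 9 adipocyte markers measured, 6 were not above background on any array, Adipoq and Plin1 among them. None was called by limma, and 6 of the 9 had negative values both in DM_AngIV against NC and in DM against NC. An unadjusted p below 0.05 was found for 4 in DM_AngIV against NC and 5 in DM against NC, beside 14.6% and 8.95% of all genes. The direction was mixed. By lack of overlap, 3 were higher and 0 lower in DM than in NC, beside 2.45% and 2.09% of all genes. In DM_AngIV 1 was higher and 1 lower than in NC, beside 5.63% and 4.2%. Adipoq, the adipocyte hormone adiponectin, had 3.32, 2.81, 3.72 and 2.88 in DM_AngIV, 3.59, 2.96, 2.97 and 3.12 in DM and 4.48, 3.08, 3.44 and 4.43 in NC, below the background limit throughout. Its means were thus lower in both diabetic groups than in NC, without a call (limma adjusted p = 0.288 in DM_AngIV against NC and 0.484 in DM against NC). The mean level of the list ranged over 4.77 to 5.02 in DM_AngIV, 4.82 to 5.05 in DM and 4.66 to 5.23 in NC. The part of adipose tissue in the Retnla signal was not tested.

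The signals that drive alternative activation gave no call in any comparison. Il4ra, the receptor for interleukins 4 and 13, had means of 6.02 ± 0.11 in DM_AngIV, 6.30 ± 0.52 in DM and 5.95 ± 0.26 in NC. Stat6 had 6.57 ± 0.18 in DM_AngIV, 6.43 ± 0.16 in DM and 6.26 ± 0.22 in NC. Il4 itself, and Arg1 and Chil3, the other classic genes of alternative activation in mice, were not above background on any array. These 5 genes were named after their values were seen.

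Cd163, the scavenger receptor for haemoglobin bound to haptoglobin, had positive differences in all 3 comparisons. It had 5.58, 6.35, 6.04 and 5.47 in DM_AngIV, 6.55, 5.51, 5.42 and 4.70 in DM and 5.24, 4.36, 4.57 and 4.55 in NC. Every DM_AngIV mouse was above every NC mouse, whereas DM and NC overlapped through DM replicate 4. The difference was 1.18 ± 0.31 in DM_AngIV against NC (limma adjusted p = 0.0810), 0.87 ± 0.31 in DM against NC (0.413) and 0.31 ± 0.31 in DM_AngIV against DM (0.840), so it passed in none. Only 1 NC array was above background, so the differences from NC are partly unmeasured. In DM_AngIV against NC it passed when only the 8 arrays of these groups were fitted (adjusted p = 0.0277) or genes below background on all arrays were left out (0.0482), within a range of 0.0277 to 0.476 over the alternatives.

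Lyve1 marks both resident macrophages and lymphatic endothelium. It had 6.54, 6.86, 7.14 and 7.33 in DM_AngIV, 7.89, 7.46, 6.54 and 6.56 in DM and 6.75, 6.26, 6.64 and 6.28 in NC. The groups overlapped in each comparison, with differences of 0.49 ± 0.26 in DM_AngIV against NC (limma adjusted p = 0.421) and 0.63 ± 0.26 in DM against NC (0.494). Among 6 lymphatic endothelial markers, 1 was called, in DM_AngIV against NC, where 1.02% of all genes were called. It was the only 1 with a positive value there, and 5 were negative. The called gene was Mmrn1, a gene of lymphatic endothelium and platelets named after its values were seen, at 4.29 ± 0.14 in DM_AngIV and 3.34 ± 0.24 in NC (limma adjusted p = 0.0380), below the background limit on all arrays. Prox1, the lymphatic master regulator that heart muscle also expresses, and the lymphatic chemokine Ccl21a had differences of −0.29 and −0.05 in that comparison.

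Mrc1 and Folr2, the mannose receptor and the folate receptor of macrophages, lay close together across groups. Mrc1 averaged 6.66 ± 0.25 in DM_AngIV, 6.57 ± 0.69 in DM and 6.35 ± 0.20 in NC. Its DM values ran from 5.80 in replicate 4 to 7.49 in replicate 1, wider than the whole span of the other 8 arrays. Folr2 averaged 5.78 ± 0.32 in DM_AngIV, 5.92 ± 0.41 in DM and 5.85 ± 0.14 in NC, and no difference exceeded 0.14 in size. Timd4, a receptor for dying cells on long-lived resident macrophages, had no array above background, with values between 2.98 and 3.75.

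The 2 monocyte markers gave signals of different strength. Ccr2, the receptor for the chemokine Ccl2, had no array above background, so no fold is given. It had 2.94, 2.61, 2.51 and 2.50 in DM_AngIV, 3.21, 3.41, 2.88 and 2.45 in DM and 2.24, 2.22, 2.65 and 2.33 in NC, and it was called in no comparison (limma adjusted p = 0.508 in DM_AngIV against NC, 0.302 in DM against NC). Ccr2 thus gave no measurable signal on these arrays.

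Ly6c2 was above background throughout. It had 6.28, 6.54, 6.30 and 6.49 in DM_AngIV, 6.78, 6.50, 5.97 and 6.01 in DM and 5.41, 5.77, 5.80 and 5.96 in NC. All mice of both diabetic groups were above all NC mice, though DM replicate 3 exceeded NC replicate 4 only narrowly. The difference was 0.67 ± 0.17 in DM_AngIV against NC (limma adjusted p = 0.0768) and 0.58 ± 0.17 in DM against NC (0.308), so it was not called. In DM_AngIV against NC it passed with only the 8 arrays of these groups (adjusted p = 0.0343), without dim genes (0.0411) or with a trended, robust prior (0.0261), within a range of 0.0261 to 0.405 over the alternatives. Without the arrays with atrial signal, which left DM replicate 3 as the only DM array, the difference in DM against NC was 0.10.

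The endothelial paralog was above background on all arrays as well. Ly6c1 had 9.27, 9.25, 9.03 and 9.25 in DM_AngIV, 9.51, 9.23, 8.68 and 8.38 in DM and 8.26, 8.17, 8.46 and 8.49 in NC. It rose by 0.86 ± 0.19 in DM_AngIV against NC (limma adjusted p = 0.0446), with no overlap between these groups, whereas DM and NC overlapped. Across the 12 arrays Ly6c2 and Ly6c1 correlated with r = 0.932, and with r = 0.846 after each group's mean was removed, and Ly6c1 ranked 8 among 8639 genes by likeness to Ly6c2. The difference Ly6c2 minus Ly6c1, set to 0 on average in NC, was −0.19 ± 0.13 in DM_AngIV and −0.02 ± 0.18 in DM (SD, n = 4 each), while single NC mice ranged from −0.25 to 0.21. Pecam1, a general endothelial gene, was also higher in every DM_AngIV mouse than in any NC mouse, at 7.72 ± 0.19 in DM_AngIV and 7.30 ± 0.14 in NC (limma adjusted p = 0.301). Over the 7 endothelial markers measured, 5 had positive and 2 negative values in DM_AngIV against NC, with a median of 0.02. Ly6c1 was the only call, where 1.02% of all genes were called. The part of endothelium in the Ly6c2 signal was not tested.

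**Figure D2:**
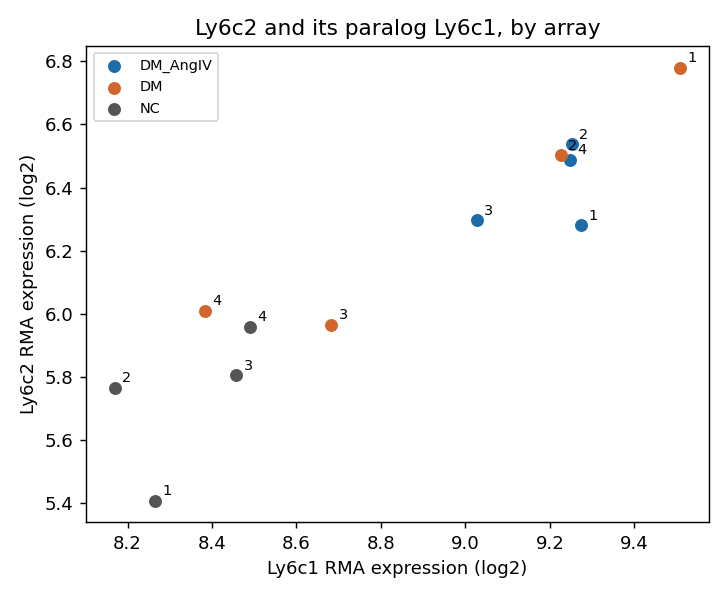
Ly6c2 (y axis) against its paralog Ly6c1 (x axis), both in RMA log2 units, with 1 point per mouse labelled by replicate number. The points lie along a line, with NC mice at the lower left, all DM_AngIV mice above 9 for Ly6c1, and DM mice from 8.38 to 9.51 for Ly6c1 and from 5.97 to 6.78 for Ly6c2.

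Of the general markers, Csf1r, the receptor for the macrophage growth factor Csf1, averaged 6.90 ± 0.39 in DM_AngIV, 6.89 ± 0.27 in DM and 6.56 ± 0.10 in NC. The difference was 0.34 ± 0.17 in DM_AngIV against NC (limma adjusted p = 0.380) and 0.33 ± 0.17 in DM against NC (0.618). Its values in DM_AngIV were 7.04, 7.15, 7.07 and 6.32, so replicate 4 stood below every NC mouse and the other 3 above. Adgre1, an adhesion receptor used to mark mouse macrophages, averaged 5.07 ± 0.46 in DM_AngIV, 5.14 ± 0.39 in DM and 4.94 ± 0.29 in NC, with no call.

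**Figure D3:**
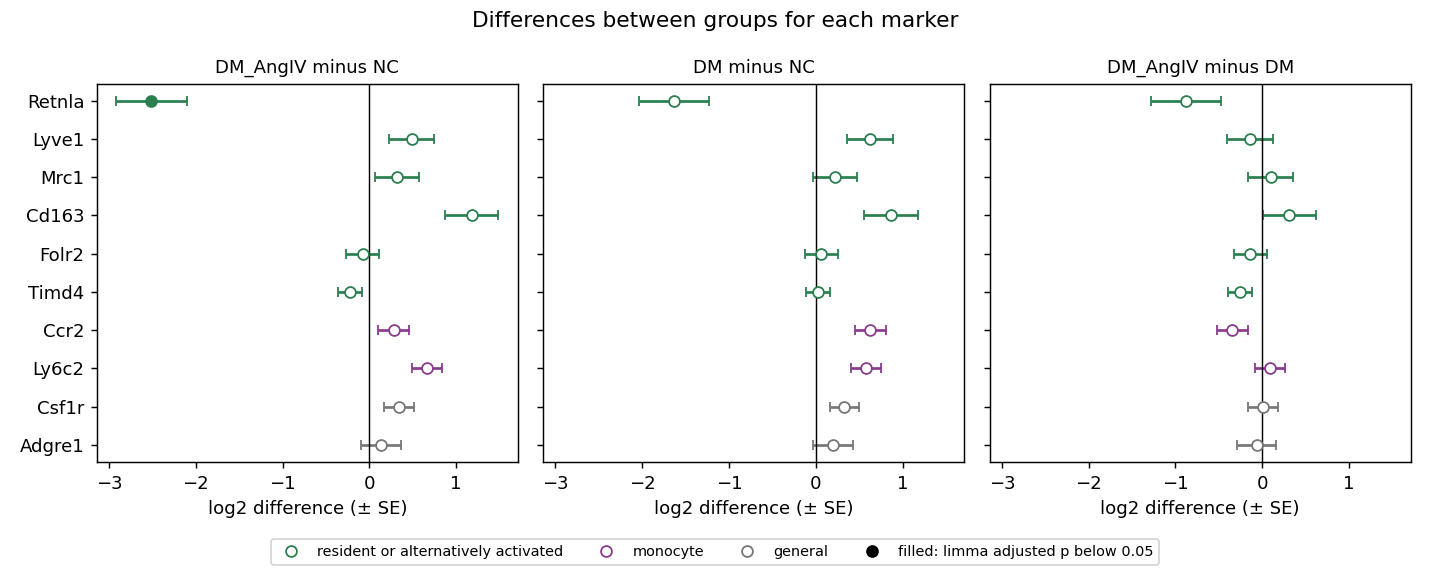
Difference between groups for each marker (x axis, log2 units, bars ± SE from limma), in DM_AngIV minus NC, DM minus NC and DM_AngIV minus DM. The filled point of Retnla in DM_AngIV minus NC, at −2.51, marks the only call.

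Taken by role, the median difference of the 6 resident markers was 0.12 in DM_AngIV against NC, 0.14 in DM against NC and −0.14 in DM_AngIV against DM. The medians of the 2 monocyte markers were 0.47 in DM_AngIV against NC, 0.60 in DM against NC and −0.13 in DM_AngIV against DM. Those of the 2 general markers were 0.24, 0.26 and −0.03. With single arrays of the groups compared left out, the resident median ran from 0.01 to 0.22 in DM_AngIV against NC and from −0.02 to 0.34 in DM against NC. In DM_AngIV against DM it ran from −0.28 to 0.08, and an atrial covariate gave 0.14. With the mean of a wider set of general macrophage genes as a covariate, described below, it was negative in DM_AngIV against NC. The sign of the resident median is thus not settled in any comparison. The median over all genes was −0.01 in DM_AngIV against NC and 0.00 in the other comparisons. In DM against NC, 0 of the 10 were called by limma, where 0.0154% of all genes were called. In DM_AngIV against DM, 0 were called by limma, where 0.0% of all genes were called. An unadjusted limma p below 0.05 was found for 5 of the 10 in DM against NC, beside 8.95% of all genes. It was found for 3 in DM_AngIV against NC, beside 14.6%. In DM_AngIV against DM it was found for 1, a share near the 7.48% of all genes.

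By lack of overlap, 2 of the 10 were higher (Cd163 and Ly6c2) and 1 lower (Retnla) in DM_AngIV than in NC, where 5.63% of all genes were higher and 4.2% lower in this way. In DM against NC 1 was higher (Ly6c2) and 0 lower, beside 2.45% and 2.09% of all genes. In DM_AngIV against DM 0 were higher and 1 lower (Timd4, below background), beside 2.81% and 2.2%.

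The mean of the resident markers minus that of the monocyte markers, set to 0 on average in NC, was −0.61 ± 0.18 in DM_AngIV and −0.57 ± 0.24 in DM (SD, n = 4 each), while single NC mice ranged from −0.40 to 0.38. These means hold Ccr2 and Timd4, below background on all arrays, and Retnla, below it on all DM_AngIV arrays, so their size rests partly on unmeasured levels. Without Retnla the resident mean was higher by 0.34 ± 0.20 in DM_AngIV and by 0.36 ± 0.49 in DM than the NC mean, with single NC mice from −0.17 to 0.21. The mean of the 2 monocyte markers was higher by 0.47 in DM_AngIV and 0.60 in DM. Without Retnla the means of both roles were thus higher than in NC. The contrast of the roles was not computed without Retnla or without Ccr2 alone.

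**Figure D4:**
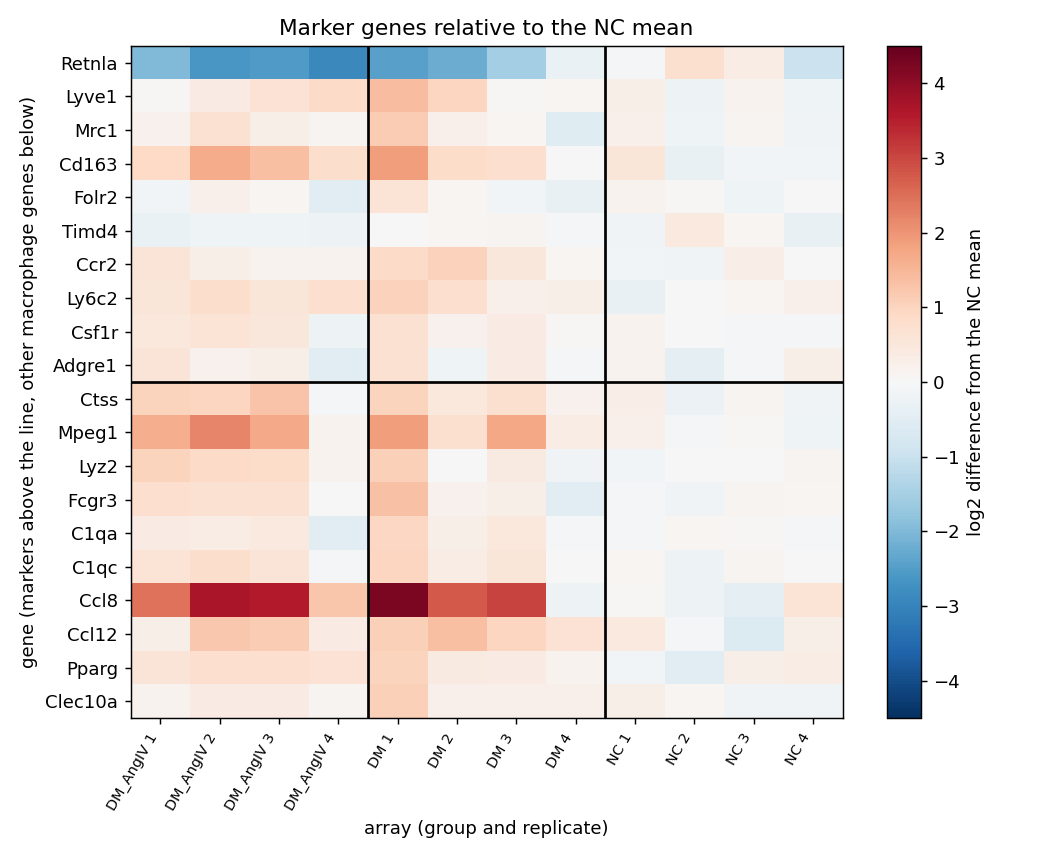
Difference of each gene from its NC mean (colour, log2 units) by array, with the 10 markers above the line and 10 other macrophage genes, chosen after their values were seen, below it. Retnla is blue and Ccl8 red in all DM_AngIV mice and in DM replicates 1 to 3, while DM replicate 4 is pale for most genes.

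Single mice set much of the spread. DM replicate 1 had the highest value of all 12 arrays for 7 of the 10 markers (Lyve1, Mrc1, Cd163, Folr2, Ly6c2, Csf1r and Adgre1), and it was among the 5 arrays with atrial signal. Pairs among these 7 genes correlated across arrays with r between 0.10 and 0.85 (21 pairs, median 0.61, 12 arrays), so they tended to be high in the same mice. With values below background included, Retnla correlated negatively with 8 of the other 9 markers, from −0.86 with Ly6c2 to −0.15 with Folr2, and with r = 0.50 with Timd4. These values describe 12 arrays that share the difference between groups.

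The wider set of 17 general macrophage genes had positive values for 15 in DM_AngIV against NC and for all 17 in DM against NC, with medians of 0.27 and 0.39. By limma 0 were called in either, and 7 and 8 had an unadjusted p below 0.05, beside 14.6% and 8.95% of all genes. Their mean, set to 0 on average in NC, was 0.53, 0.55, 0.54 and −0.11 in DM_AngIV and 0.77, 0.33, 0.47 and −0.03 in DM, while NC mice lay between −0.03 and 0.05. Replicate 4 of each diabetic group thus lay at or below the NC values. Their Retnla values were 3.31 in DM_AngIV replicate 4, below background, and 5.91 in DM replicate 4. The part of macrophage content in the Retnla signal was not tested.

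With the macrophage mean as a covariate in the fit, an alternative added after seeing the data, Retnla had −2.18 ± 0.48 in DM_AngIV against NC and was not called (limma adjusted p = 0.114).

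**Figure D5:**
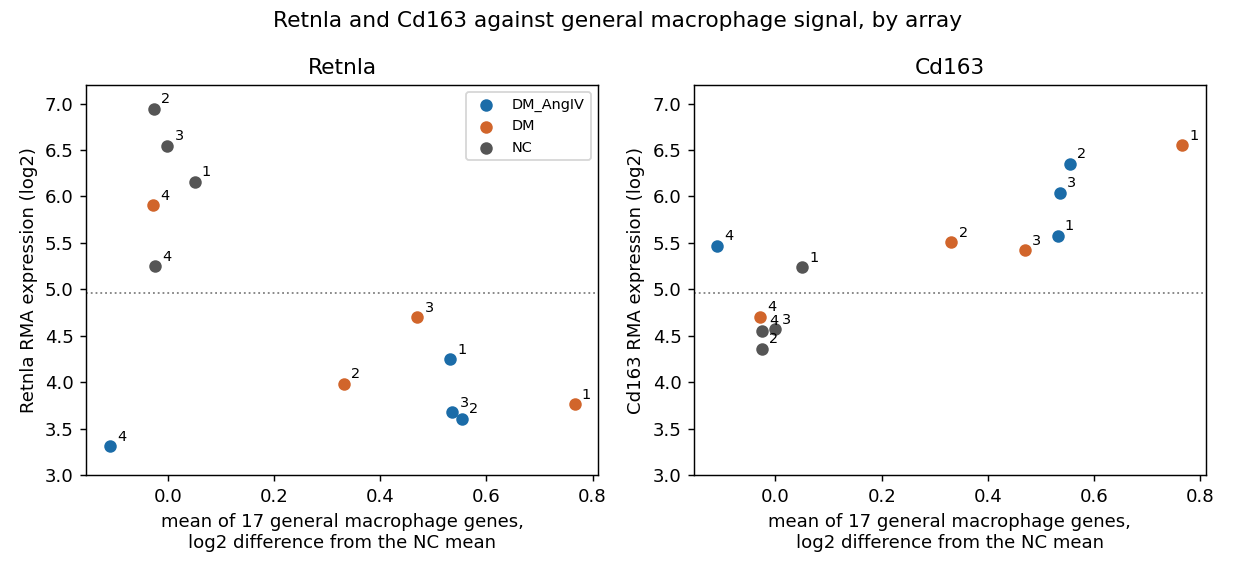
Retnla (left) and Cd163 (right), in RMA log2 units, against the mean of 17 general macrophage genes (x axis, log2 difference from the NC mean), with 1 point per mouse labelled by replicate number and the background limit dotted. NC mice cluster near 0 on the x axis with high Retnla and low Cd163, and DM_AngIV replicate 4 lies at 3.31 for Retnla and at −0.11 on the x axis.

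Other genes of resident or alternatively activated macrophages gave no call in any comparison. Of 19 measured, 10 had positive and 9 negative values in DM_AngIV against NC, with a median of 0.03, and 11 and 8 in DM against NC, with a median of 0.10. An unadjusted limma p below 0.05 was found for 4 in DM_AngIV against NC, 3 in DM against NC and 1 in DM_AngIV against DM, where 14.6%, 8.95% and 7.48% of all genes had one. Cd209f, a lectin of tissue macrophages, was below background throughout. Selenop, the secreted selenium carrier, had 0.44 ± 0.17 in DM_AngIV against NC (limma adjusted p = 0.223), and Pf4, a chemokine of platelets and macrophages, had −0.32 ± 0.11 in DM_AngIV against DM (0.607).

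The blood monocyte list, with 14 measured genes, gave no call either, and 7 of them were not above background on any array. It had 6 positive and 8 negative values in DM_AngIV against NC, and 7 of each sign in DM against NC. The medians were −0.18 in DM_AngIV against NC and −0.03 in DM against NC. An unadjusted limma p below 0.05 was found for 2 in DM_AngIV against NC, 3 in DM against NC and 2 in DM_AngIV against DM. These counts stood beside 14.6%, 8.95% and 7.48% of all genes, a share near that of the list in DM_AngIV against NC. Gda, the enzyme guanine deaminase, had 0.68 ± 0.16 in DM against NC with no overlap between the groups (limma adjusted p = 0.187). Ly6e, a Ly6 protein found in many cell types, had 0.41 ± 0.15 in DM_AngIV against NC and 0.47 ± 0.15 in DM against NC (limma adjusted p = 0.205 and 0.340).

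Among 14 chemokines and receptors of monocyte recruitment, 11 had positive values both in DM_AngIV against NC and in DM against NC, and limma called none. The medians were 0.06 and 0.21, and 5 of the 14 were not above background on any array. An unadjusted p below 0.05 was found for 4 in each of these comparisons, beside 14.6% and 8.95% of all genes. Ccl8, a chemokine of the monocyte chemoattractant family, had differences far larger than these medians. It had 5.81, 7.06, 6.94 and 4.62 in DM_AngIV, 7.60, 6.12, 6.41 and 3.14 in DM and 3.44, 3.14, 2.93 and 3.98 in NC. All DM_AngIV mice were above all NC mice, and as no NC array was above background, Ccl8 was at least 2.21-fold higher in DM_AngIV by its mean, although it was not called (limma adjusted p = 0.0807). In DM it was at least 1.81-fold higher (limma adjusted p = 0.308), with replicate 4 at the NC level. Ccl12, of the same family, was higher in every DM mouse than in any NC mouse, without a call (limma adjusted p = 0.206). As only 1 DM array and no NC array was above background, no fold is given.

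Of 20 growth factors, cytokine receptors and transcription factors of macrophages, limma called none, with 3 at an unadjusted p below 0.05 in each comparison. This share was near that of all genes (14.6%) in DM_AngIV against NC. It was above that of all genes in DM against NC (8.95%) and in DM_AngIV against DM (7.48%). Pparg, a lipid-sensing nuclear receptor that many cell types express, was higher in every DM_AngIV mouse than in any NC mouse, at 6.26 ± 0.08 in DM_AngIV and 5.57 ± 0.38 in NC (limma adjusted p = 0.0917). It was named for its low p within the list. By lack of overlap, 1 of the 20 was higher and 1 lower in this comparison, shares near the 5.63% and 4.2% of all genes. Il13 averaged 4.59 ± 0.23 in DM_AngIV, 4.97 ± 0.11 in DM and 4.84 ± 0.26 in NC, near the background limit. Irf4, a factor of alternative activation, was not above background on any array.

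Markers of other immune cells were mostly not measurable. All 10 neutrophil, 8 T and NK cell and 4 B cell markers, 6 of 8 dendritic cell markers and 4 of 5 mast cell markers were not above background on any array. Of the fibroblast markers, 1 of 6 was called in DM_AngIV against NC, where 1.02% of all genes were called and 0.287% as lower. In that comparison 1 of the 6 had a positive and 5 a negative value. The called gene was Col3a1, a fibrillar collagen named after its values were seen, which fell by 1.17 ± 0.20 (limma adjusted p = 0.0128).

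By likeness across the 12 arrays, among genes above background on at least 4 of them and without predicted genes, the genes closest to Csf1r were C1qc, Mpeg1 and Ctss (r = 0.940, 0.939 and 0.933). For Cd163 they were Ifi207, Fcgr2b and Man2a1 (r = 0.951, 0.941 and 0.929), and for Mrc1 they were C1ra, Ptprk and Stxbp6 (r = 0.932, 0.928 and 0.924). Those closest to Lyve1 were Clec3b, Rin3 and Apod (r = 0.932, 0.930 and 0.912). Retnla was most like Itgb6, Siva1 and Naa38 (r = 0.948, 0.947 and 0.934), Ly6c2 most like Acadl, Tacc2 and Epn1 (r = 0.953, 0.950 and 0.949), Folr2 most like Arrb1, Ldlrad4 and Dysf (r = 0.867, 0.848 and 0.817) and Adgre1 most like Ctsb, Eng and Tagln2 (r = 0.905, 0.857 and 0.845). Timd4 and Ccr2, below background on all arrays, were left out here. None of these 8 markers had another of the 8 among its 3 closest genes. Timd4 and Ccr2 could not appear there, as neither was above background on enough arrays to be compared. These r values (Pearson, 12 arrays) share the difference between groups.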

How the data were processed

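The authors deposited 1 table of log2 values for 29129 probe sets, made by robust multi-array average (RMA) per the submitters' processing notes, whose version is not given in the sources used here. RMA corrects background, sets arrays to a common distribution and summarises probes, which compresses differences of dim genes. Of the probe sets, 19572 had 1 gene symbol, all matched GRCm38.p6 by gene ID, and the probe set with the highest mean was used for 55 symbols with several, leaving 19505 genes.

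Groups were compared with limma 3.58.1 in R 4.3.3 (1 mean per group over 12 arrays, two-sided moderated tests, Benjamini-Hochberg adjustment over all genes, called below 0.05), after a test on simulated data. Errors of differences are SE. Precision is limited by the number of arrays. A bound sets lower values of the dim group to the 95th percentile of reporter controls (4.96). The members, 18 gene lists and alternatives were chosen with earlier results of these data known. Named genes were the members, the 3 genes of lowest p per pathway list, defining cell type markers and the 3 genes most alike each member by Pearson r, and others are stated as chosen after their values were seen. Same-numbered arrays showed no clear shared deviation (r between −0.10 and 0.17), so mice were not paired by replicate number. These correlations cannot settle whether the numbers mark a pairing. Promoters come from RefSeq (GRCm38.p6), with the most upstream window per gene. Figures used matplotlib 3.10.9.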

Additional observations from a re-analysis of the deposited data

Results flagged for a closer look

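Among the 30 sets of 4 values (10 markers in 3 groups), 1 held an array far from the others by Dixon's criterion, where chance gives about 1 in 20. Csf1r in DM_AngIV replicate 4 was at 6.32, while the other 3 DM_AngIV arrays lay between 7.04 and 7.15.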

How the results depend on the processing

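The number of markers called in DM_AngIV against NC, 1 in the report, was 3 with an adjusted p below 0.1, 3 without dim genes, 3 with only the 8 arrays compared, 2 with a trended, robust prior, 0 without the arrays with atrial signal and 0 with the macrophage covariate, and stayed at 1 without each of the 8 arrays of these groups in turn. In DM against NC it lay between 0 and 1 when arrays were left out, with 1 only without DM replicate 4. In DM_AngIV against NC the median of the monocyte markers, 0.47 in the report, was 0.67 without dim genes and 0.31 with the macrophage covariate. With that covariate, added after seeing the data, the resident median was −0.20 and the general median −0.17 in DM_AngIV against NC, and the general median was −0.15 in DM against NC.

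Some differences, not all of them near 0, changed sign, and the cause was not tested. With the macrophage covariate they were Adgre1 −0.30, Csf1r −0.030 and Mrc1 −0.16 in DM_AngIV against NC, and Adgre1 −0.25, Csf1r −0.049, Folr2 −0.33 and Mrc1 −0.26 in DM against NC. Without the arrays with atrial signal, which left DM replicate 3 as the only DM array, Folr2 was −0.12 in DM against NC. In DM_AngIV against DM this setting gave −0.040 for Csf1r, 0.033 for Folr2 and 0.43 for Lyve1. With an atrial covariate Folr2 was 0.0013 in DM_AngIV against NC and Lyve1 0.33 in DM_AngIV against DM, and with repeated quantile normalization Csf1r was −0.027 in DM_AngIV against DM. With single arrays left out, values in DM_AngIV against NC ran from −0.015 to 0.35 for Adgre1 and −0.18 to 0.069 for Folr2. In DM against NC they ran from −0.12 to 0.19 for Folr2, −0.082 to 0.48 for Mrc1 and −0.089 to 0.17 for Timd4. In DM_AngIV against DM they ran from −0.21 to 0.15 for Adgre1, −0.076 to 0.20 for Csf1r, −0.27 to 0.048 for Folr2, −0.030 to 0.24 for Ly6c2, −0.33 to 0.12 for Lyve1 and −0.16 to 0.40 for Mrc1.

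Over all genes, calls in DM_AngIV against NC, 198 in the report, were 509 with an adjusted p below 0.1, 476 without dim genes, 514 with a trended, robust prior, 50 without the arrays with atrial signal, 14 with the macrophage covariate and 81 to 167 without single arrays of the groups compared. In DM against NC, with 3 in the report, they were 17 with an adjusted p below 0.1, 3 without dim genes and 28 with a trended, robust prior. They were 1 with the macrophage covariate and 2 to 30 without single arrays. In DM_AngIV against DM, with 0 in the report, leaving out DM_AngIV replicate 2 gave 5 and leaving out DM_AngIV replicate 4 gave 1. With the replicate number as a block, calls were 115 in DM_AngIV against NC, 3 in DM against NC and 0 in DM_AngIV against DM. The replicate block changed no marker's call (Retnla in DM_AngIV against NC, limma adjusted p = 0.0312). Probe sets at or below 4.96 hold differences that these arrays could not resolve, which limits Timd4 and Ccr2 throughout, Retnla in DM_AngIV and Ccl8 in NC to bounds, and Cd163, Adgre1 and Ccl12 in part.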
